A study of Mus musculus with 6 samples.

Results

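Fc receptors bind the constant part of antibodies and so link what antibodies have bound to the response of the cell that carries the receptor. A total of 8 genes of this group were chosen by name: the activating IgG receptors Fcgr1, Fcgr3 and Fcgr4, their signalling chain Fcer1g, the inhibitory IgG receptor Fcgr2b, the neonatal receptor Fcgrt, the IgM receptor Fcmr and the Fc receptor-like gene Fcrla. Probes were matched to them by symbol. The detection p-value is the chance that background alone, as read by control probes, would be as bright as the probe. A gene counted as measured where this was under 0.05 on at least 3 of 6 arrays. By this rule 7 of the 8 were measured, among 6331 genes and unnamed probes measured in all.

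The cells were dendritic cells (DCs), which carry antigen to lymph nodes and present it to T cells, sorted by flow cytometry from peripheral lymph nodes of mice. One group of mice received broad-spectrum antibiotics by gavage for 10 days, and the other had no treatment. The labels name no gavage for the untreated mice, so any effect of gavage and that of the drugs cannot be told apart. Each group had 3 Illumina bead arrays, and strain, age, sort gate and whether an array stands for 1 animal or a pool are not given in the sources used here. P-values therefore measure the spread between these arrays, which may be technical.

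The DC genes Itgax (CD11c) and H2-Ab1 were detected on all 6 arrays, and the growth factor receptor gene Flt3 on 0. Arrays had 6876 to 7674 detected probes, the fewest on antibiotics replicate 1, which also lay at -25.3 on the first principal component against 1.36 to 11.5 for the others. Under limma with Benjamini-Hochberg adjustment over all 6331, 0 genes reached an adjusted p of 0.05 (0% called), and 490 (7.74%) had an unadjusted p under 0.05, 216 higher and 274 lower after antibiotics. With median scaling in place of quantile normalization that split was 79 higher of 359.

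In DCs and macrophages, activating IgG receptors signal through the tyrosine-based activation motif of Fcer1g, and Fcgr2b opposes them through an inhibitory motif in its own tail. Fcgrt, which pairs with beta-2-microglobulin, returns swallowed IgG to the cell surface and helps to direct immune complexes toward antigen presentation. Fcmr, best known from B cells, binds the Fc part of IgM, and Fcrla is an intracellular protein of the B lineage.

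None of the 7 measured receptors passed the adjusted threshold after antibiotics, and their limma adjusted p ran from 0.367 to 0.967. Fcmr lay lower, at a log2 fold change of -1.06 (SE 0.27), and Fcgr2b, Fcgr3 and Fcrla lay higher, at 0.49 (SE 0.19), 0.43 (SE 0.19) and 0.43 (SE 0.17). Fcgrt lay higher by 0.21 (SE 0.16) with overlapping groups, and the 95% intervals of Fcgrt, Fcer1g and Fcgr4 all included 0. In 4 of 7 the unadjusted p was under 0.05, beside 7.74% of all genes. These were 3 that lay higher, beside 3.41% of all genes, and 1 that lay lower, beside 4.33%. In 3 of 7 the groups did not overlap, beside 13.7%. The members had been picked with results of these arrays known, so these shares are no evidence about the family. Their median log2 fold change was 0.21, and that of all genes tested was 0.017. In bulk samples such as these, fewer cells of one type and less RNA per cell cannot be told apart.

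**Figure D1:**
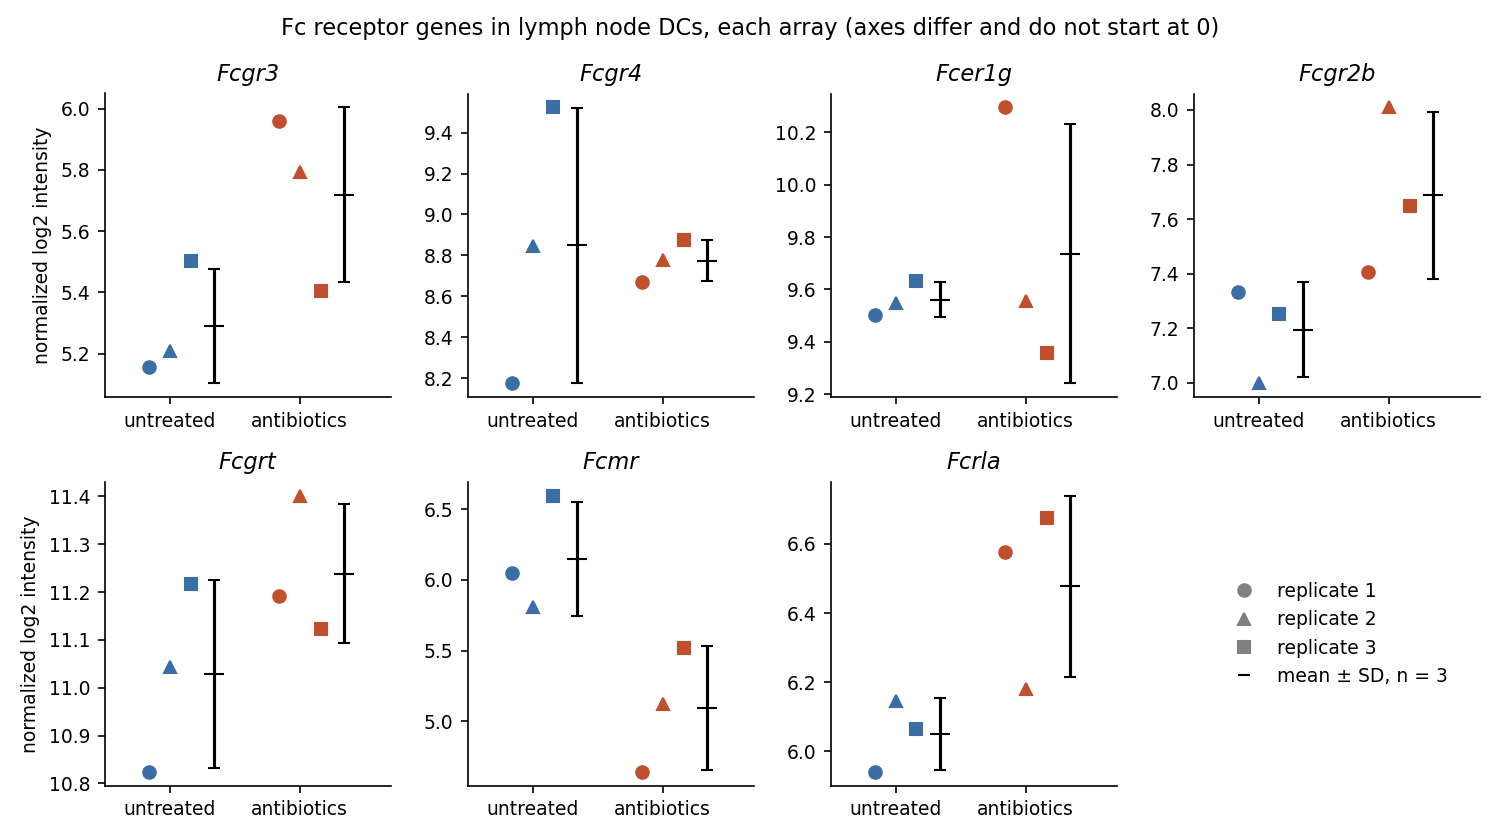
Normalized log2 intensity of the 7 measured Fc receptor genes on each array, with untreated arrays in blue, antibiotics arrays in orange, 1 marker shape per replicate number and a bar for the mean ± SD (n = 3). For Fcmr each antibiotics array was under each untreated array, for Fcgr2b and Fcrla each was over, and the groups overlapped for the other 4 genes.

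The promoters of the 3 genes whose groups did not overlap are shown, as the 250 bases before the start site in RefSeq's GRCm38.p6, 5′ to 3′ on the gene's own strand. The windows are chr1:130865527-130865776 (+ strand) for Fcmr, chr1:170976072-170976321 (- strand) for Fcgr2b and chr1:170927584-170927833 (- strand) for Fcrla. Capitals mark matches to 4 motifs searched on both strands: GAGGAA, a core bound by the myeloid and B cell factor PU.1, TTCNNNGAA, the site of STAT dimers, the interferon-response element (GAAA, any 2 bases, GAAA), and ATTTGCAT, the octamer of B cell promoters.
Fcmr: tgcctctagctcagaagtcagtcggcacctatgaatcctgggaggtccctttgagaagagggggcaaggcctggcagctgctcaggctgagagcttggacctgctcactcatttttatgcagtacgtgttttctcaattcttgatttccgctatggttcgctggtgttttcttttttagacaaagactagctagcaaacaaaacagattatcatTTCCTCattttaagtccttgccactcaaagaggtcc
Fcgr2b: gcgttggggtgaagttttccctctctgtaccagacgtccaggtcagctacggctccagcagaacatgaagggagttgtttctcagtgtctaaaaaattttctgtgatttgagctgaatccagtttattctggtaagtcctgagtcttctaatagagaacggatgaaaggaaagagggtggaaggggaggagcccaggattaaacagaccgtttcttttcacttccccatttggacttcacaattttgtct
Fcrla: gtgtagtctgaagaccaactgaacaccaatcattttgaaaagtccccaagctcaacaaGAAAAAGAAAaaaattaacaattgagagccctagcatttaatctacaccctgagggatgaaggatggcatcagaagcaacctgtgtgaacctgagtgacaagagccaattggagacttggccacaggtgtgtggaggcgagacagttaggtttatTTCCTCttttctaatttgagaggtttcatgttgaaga

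The Fcmr window held 1 match, to GAGGAA on the reverse strand, and the Fcrla window held 1 of the same kind and 1 to the interferon-response element. The Fcgr2b window held 0 matches to the 4 motifs. All 8 members had a window in the RefSeq table, and GAGGAA stood in 5 of the 8, in those of Fcgr1, Fcgr3, Fcgr4, Fcmr and Fcrla. Fcgr3 had 2 windows, of which only the first listed was read. Of all 32851 windows of this length, with each window of a gene counted, 23.3% held it. TTCNNNGAA was found in the Fcgr1 window alone among the members (7.02% of all windows), the interferon-response element in those of Fcgr4 and Fcrla (2.98%) and ATTTGCAT in 0 (1.6%). No 2 of the matches in members overlapped. Such matches are letters, and binding was not measured.

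Fcmr showed the largest difference among the measured members. Its normalized log2 intensity was 4.64, 5.12 and 5.52 on the antibiotics arrays and 6.05, 5.81 and 6.60 on the untreated ones, so every antibiotics array lay below every untreated array. The mean was 5.09 ± 0.44 (SD, n = 3) in the treated group and 6.15 ± 0.40 (SD, n = 3) in the other. This made a log2 fold change of -1.06 (95% interval -1.67 to -0.45, limma adjusted p = 0.367), or 0.48 times the untreated level. Groups that do not overlap with antibiotics lower made up 6.62% of all genes.

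The Fcmr probe was dim. Before any correction its intensity was 92.3, 103.5 and 119.2 after antibiotics and 130.8, 136.1 and 158.6 without, where the median probe of an array read 84.7 to 89.2. Detection p-values were 0.159, 0.0376 and 0.00125 on the antibiotics arrays and 0 on each untreated array. Fcmr thus counted as detected on 2 of 3 antibiotics arrays and 3 of 3 untreated ones, enough untreated arrays to pass the filter by themselves. Near the background the fold depends on the correction: it was -0.45 without background correction and -0.62 with an offset of 50 in place of 16. With the same correction but arrays weighted unequally it was -0.75. Without any single array it ran from -1.26 to -0.84.

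B cell markers, of a cell type that a lymph node sort could hold, were read beside Fcmr. Of 14 listed markers 12 were on the array and 4 were measured. After antibiotics 3 of the 4 were lower, beside 2940 of all 6331 genes, and 0 of the 4 passed the adjusted threshold. The summed normalized intensity of the 4 (linear scale) was 338 to 375 on antibiotics arrays and 402 to 436 on untreated ones, without overlap. Most of this difference lay in Chst3 and Cd22. The list was drawn up with earlier results of these data known, so the lack of overlap is no independent evidence about B cells. Cd22, an inhibitory coreceptor of B cells, was at 5.01, 5.22 and 5.58 after antibiotics and at 6.51, 6.08 and 5.58 without. This was a log2 fold change of -0.79 (SE 0.25). Cd22 was detected on 2 of 3 antibiotics arrays and 3 of 3 untreated ones, enough untreated arrays to pass the filter by themselves. The sulfotransferase gene Chst3 was at -0.72 (SE 0.22) without overlap, beside 6.62% of all genes with antibiotics lower. Cd79b, part of the B cell receptor, was at -0.057 (SE 0.14), and Cd37, a tetraspanin gene, was at 0.28 (SE 0.21). The B cell genes Cd79a, Ms4a1 (CD20), Pax5, Blk, Ebf1, Fcer2a, Cr2 and Pou2af1 were detected on 0 of 6 arrays. The part of B cell RNA in the Fcmr difference was not tested.

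**Figure D2:**
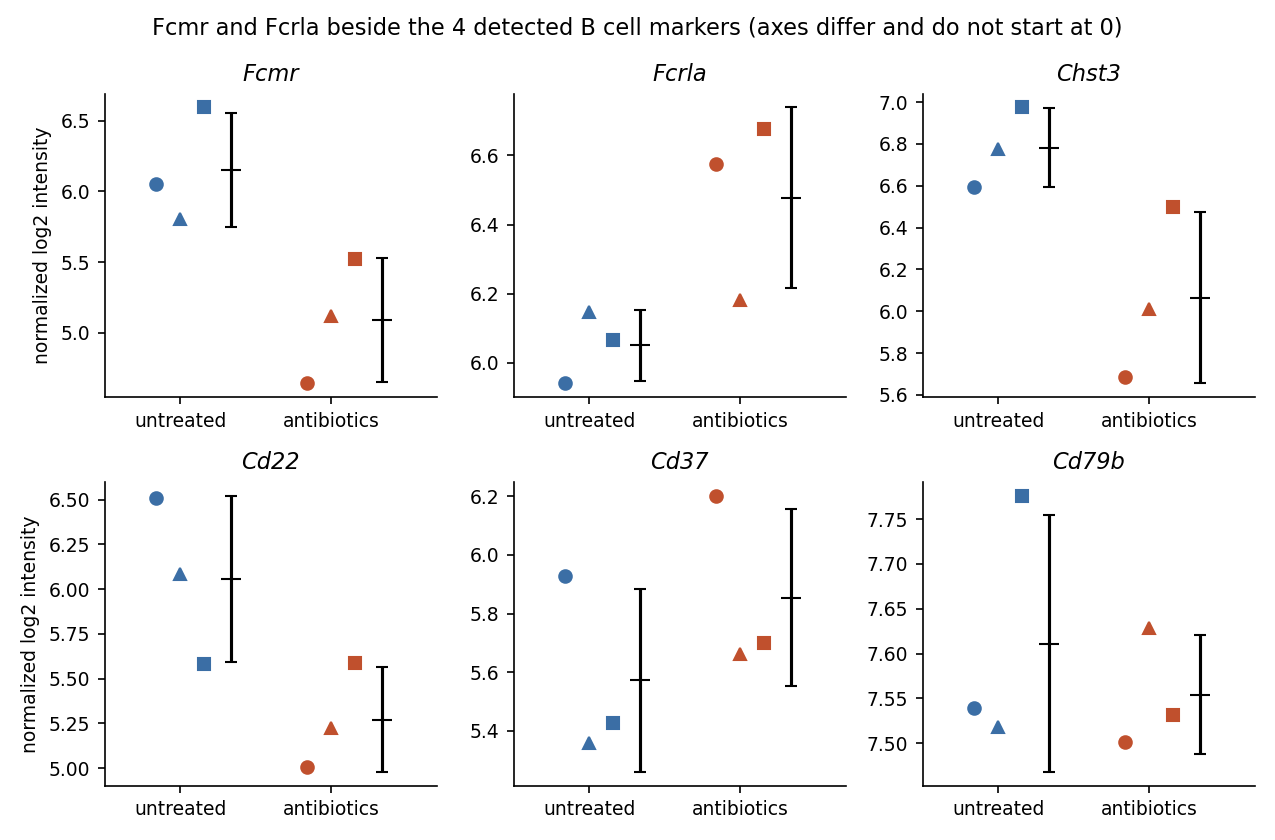
Normalized log2 intensity of Fcmr, Fcrla and the 4 measured B cell markers on each array (blue untreated, orange antibiotics; circle, triangle and square for replicates 1, 2 and 3; bar for mean ± SD, n = 3). Fcmr and Chst3 were lower on every antibiotics array, Fcrla was higher, Cd22 overlapped at 5.58, and Cd37 and Cd79b showed overlapping groups.

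The genes whose profile over the 6 arrays was most like that of Fcmr were found by the root mean square distance between log2 profiles, each centred on its own mean. They were B3galt6, a galactosyltransferase of glycosaminoglycan synthesis, at a distance of 0.20, Malt1, the paracaspase that carries antigen receptor signals to NF-kB, at 0.23, and Cdkn2d, an inhibitor of cyclin-dependent kinases, at 0.24. Their log2 fold changes were -0.74, -0.73 and -0.76, and the groups overlapped for B3galt6. Chst3 was the fifth closest, at 0.25. Genes chosen for a profile like that of Fcmr, Chst3 included, lie lower after antibiotics by that choice. These distances describe 6 arrays and carry no test.

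Fcrla, the other member known from B cells, lay on the opposite side. Its brightest probe read 6.58, 6.18 and 6.68 after antibiotics and 5.94, 6.15 and 6.07 without. The lowest antibiotics array stood only just above the highest untreated one, at 6.18 against 6.15. The log2 fold change was 0.43 (95% interval 0.041 to 0.81, limma adjusted p = 0.605). Fcrla had 4 probes, of which 3 were detected on all 6 arrays and 1 on 0. The other 2 detected probes gave 0.32 (SE 0.22) and 0.29 (SE 0.24) with overlapping groups, and the mean of all 3 gave 0.34.

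Fcgr2b, the inhibitory receptor, also read higher after antibiotics. The brightest of its 3 probes was at 7.40, 8.01 and 7.65 on the antibiotics arrays and at 7.33, 6.998 and 7.25 on the untreated ones. The groups did not overlap, although 7.40 and 7.33 lie close together. Means of 7.69 ± 0.30 and 7.19 ± 0.17 (SD, n = 3) gave a log2 fold change of 0.49 (95% interval 0.064 to 0.92, limma adjusted p = 0.575), or 1.41 times the untreated level. The other 2 probes, drawn from a second transcript record in the deposited table, gave 0.19 (SE 0.14) and 0.23 (SE 0.17) with overlapping groups, and the mean of the 3 was 0.31. Groups that do not overlap with antibiotics higher made up 7.12% of all genes.

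**Figure D3:**
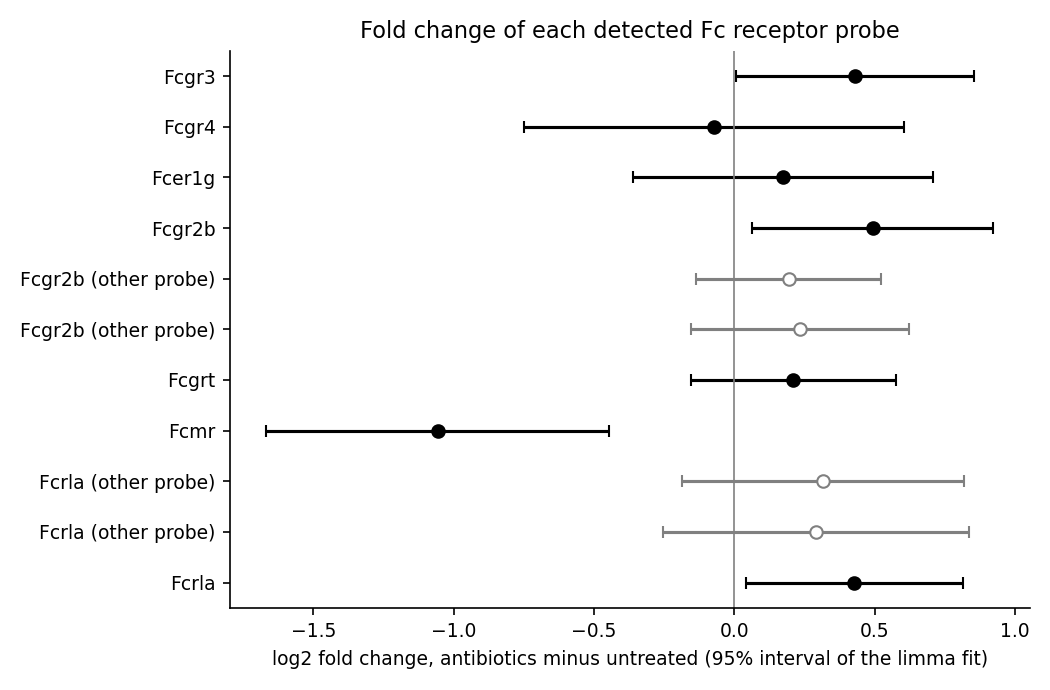
Log2 fold change, antibiotics minus untreated, of each of the 11 detected Fc receptor probes, with 95% intervals from the limma fit. Filled points are the probes that stand for a gene and open points are other probes of Fcgr2b and Fcrla, whose intervals reach below 0.

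Among the activating receptors, Fcgr3 (CD16) read 5.96, 5.80 and 5.41 after antibiotics and 5.16, 5.21 and 5.50 without. Antibiotics replicate 3 lay below untreated replicate 3, so the groups overlapped. The log2 fold change was 0.43 (95% interval 0.0070 to 0.85, limma adjusted p = 0.634), and 0.17 without background correction. The Fcgr3 probe was dim, at intensities of 102 to 126.8. Fcgr4, a receptor for the IgG2 subclasses in mice, was at 8.67, 8.78 and 8.87 after antibiotics and at 8.18, 8.85 and 9.52 without. All antibiotics arrays lay within the range of the untreated ones, whose SD was 0.67 against 0.10. The difference of -0.074 (95% interval -0.75 to 0.60) took its sign from single arrays, being 0.26 without untreated replicate 3 and -0.41 without untreated replicate 1. Fcgr1 (CD64), the high-affinity IgG receptor, was detected on 0 of 6 arrays, with intensities of 83.9 to 105.5, and no fold is given.

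Fcer1g, the chain that Fcgr1, Fcgr3 and Fcgr4 need for surface display and signalling, was at 10.30, 9.56 and 9.36 after antibiotics and at 9.50, 9.55 and 9.63 without. Antibiotics replicate 1, the array that stood apart, was the highest of the 6, while replicate 2 lay within the untreated range and replicate 3 below it. The log2 fold change was 0.17 (95% interval -0.36 to 0.71, limma adjusted p = 0.875) and turned to -0.10 without that array. Tyrobp (DAP12), a signalling chain of like design, was at -0.031 (SE 0.14).

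Fcgrt was detected on every array, at 11.19, 11.40 and 11.12 after antibiotics and at 10.82, 11.04 and 11.22 without. The highest untreated array exceeded 2 of the 3 antibiotics arrays. The log2 fold change was 0.21 (95% interval -0.15 to 0.58, limma adjusted p = 0.797). B2m, the light chain of the FcRn protein and of MHC class I, was at -0.15 (SE 0.13). It lay lower on each antibiotics array than on any untreated one, as did 6.62% of all genes.

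**Figure D4:**
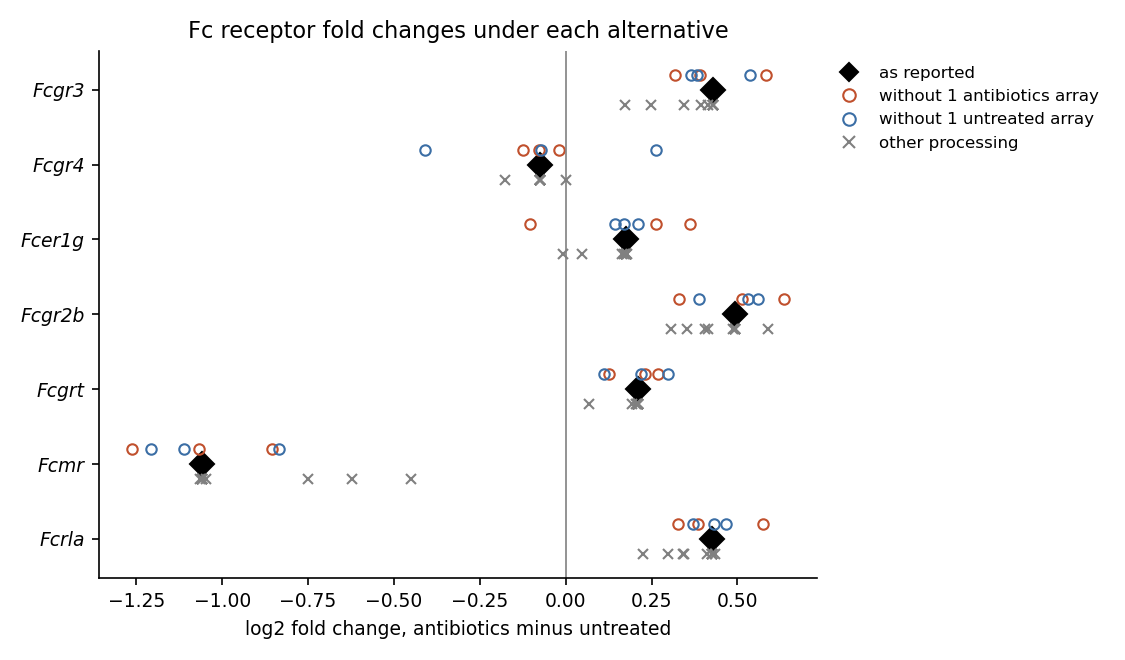
Log2 fold change, antibiotics minus untreated, of the 7 measured genes as reported (diamonds), without each array in turn (circles) and under 10 other processing choices (crosses). Fcmr stayed below 0 and Fcgr2b, Fcgr3, Fcrla and Fcgrt above 0 in all of them, while Fcgr4 and Fcer1g crossed 0.

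Macrophage and monocyte markers, of cells that carry Fcgr2b, Fcgr3 and Fcgr4, were read beside these receptors. Of 15 listed, 11 were on the array and 7 were measured. After antibiotics 6 of the 7 were higher, beside 3391 of all 6331 genes, and 0 of the 7 passed the adjusted threshold. The summed normalized intensity of the 7 (linear scale) was 1834 to 2017 on antibiotics arrays and 1198 to 1627 on untreated ones, without overlap. This list too was drawn up with earlier results known, so the lack of overlap is no independent evidence about macrophages. Most of the summed intensity was the lysozyme gene Lyz2, at 0.54 (SE 0.18). The macrophage receptor gene Adgre1 was at 0.33 (SE 0.14). In these 2 of 7 the groups did not overlap, beside 7.12% of all genes with antibiotics higher. Groups overlapped for Mrc1 at 0.52 (SE 0.25), Cx3cr1 at 0.48 (SE 0.25) and Cd163 at 0.23 (SE 0.28). They also overlapped for C1qa at 0.029 (SE 0.15) and Cd14 at -0.080 (SE 0.19). Cx3cr1 and Cd163 were each detected on 3 antibiotics arrays, enough to pass the filter by themselves, and on 2 untreated ones. Mertk, Ccr2, Siglec1 and Itgam were detected on 0 arrays. The part of macrophage RNA in the differences of Fcgr2b and Fcgr3 was not tested. Among markers of other cells that use Fc receptors, the NK cell genes Prf1 and Klrd1 were at 0.31 (SE 0.32) and -0.15 (SE 0.16), the neutrophil elastase gene Elane at 0.032 (SE 0.14) and Hdc of basophils and mast cells at 0.54 (SE 0.40). Cd8b1, a T cell marker, was at 0.093 (SE 0.22). The other markers of these lists on the array were all detected on 0 arrays: 7 of 9 for NK cells, 7 of 8 for neutrophils (S100a8, S100a9 and Mpo among them), 6 of 7 for basophils and mast cells and 7 of 8 for T cells (Cd3e, Cd3d, Cd3g, Cd4 and Cd8a among them).

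Fcrla, Fcgr2b, Fcgr4, Fcgr3 and Fcer1g are neighbours, lying in this order among a run of 13 protein-coding genes on chromosome 1 in RefSeq. Of these 13, 8 were on the array and 6 were measured, the 5 members and Sdhc, a subunit of mitochondrial complex II. Sdhc, named after its value was seen, was at 0.15 (SE 0.22). The 5 neighbours ran from -0.074 for Fcgr4 to 0.49 for Fcgr2b. Fcmr lies elsewhere on chromosome 1, Fcgr1 on chromosome 3 and Fcgrt on chromosome 7.

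Downstream of the activating receptors, kinases and adaptors such as Syk, Btk and Vav1 carry the signal to calcium release and the actin skeleton. Of 31 listed, 18 were measured, 10 higher and 8 lower, at a median of 0.062, with 0 past the adjusted threshold and 0 with an unadjusted p under 0.05, beside 7.74% of all genes. Pik3r1, the regulatory subunit of PI3 kinase, was at -0.64 (SE 0.30), and Was, the actin regulator lost in Wiskott-Aldrich syndrome, was at 0.52 (SE 0.26). The adaptor gene Nck1 and the kinase gene Pik3cd were at -0.30 (SE 0.16) and 0.30 (SE 0.24). Syk itself was not among the measured genes.

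Genes listed as opposing this signal, mainly phosphatases and adaptors, showed no common direction. Lgals3 (galectin-3) was counted both here and in the list of other antibody-binding proteins. Of 15 listed, 9 were measured, 5 higher and 4 lower (median 0.042), and 0 passed the adjusted threshold. At an unadjusted p under 0.05 there were 2 of 9, Dok2 higher and Inppl1 lower, beside 7.74% of all genes. Inpp5d (SHIP1), the lipid phosphatase that the Fcgr2b tail recruits, was at 0.29 (SE 0.21). Its relative Inppl1 (SHIP2) read 8.22, 8.96 and 9.13 after antibiotics and 9.35, 9.30 and 9.30 without, a log2 fold change of -0.54 (SE 0.23, limma adjusted p = 0.634). Dok2, an adaptor that restrains Ras, was at 0.48 (SE 0.20) without overlap, beside 7.12% of all genes with antibiotics higher. The kinase gene Csk was at 0.25 (SE 0.18).

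Few genes of a list of other antibody-binding proteins were measured. This list was not made up of Fc receptors alone, since it also held B2m and the lectin gene Lgals3. In it 5 of 14 genes were measured, 3 higher and 2 lower (median 0.11, the value of Lgals3), with 0 past the adjusted threshold. There was 1, Fcrls, at an unadjusted p under 0.05, beside 7.74% of all genes. Fcrls, an Fc receptor-like gene, read 5.42, 6.03 and 5.87 after antibiotics and 4.53, 4.49 and 5.47 without, at 0.95 (SE 0.28, limma adjusted p = 0.473). It was detected on all 3 antibiotics arrays, enough to pass the filter by themselves, and on 1 untreated array. Untreated replicate 3 lay above antibiotics replicate 1. Trim21, the cytosolic antibody receptor that sends antibody-coated particles to the proteasome, was at -0.30 (SE 0.16), and Lgals3 (galectin-3) was at 0.11 (SE 0.13).

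Of 22 listed receptors and chains that pair with Fcer1g or Tyrobp, 3 were measured, 1 higher and 2 lower (median -0.031). Clec4n (Dectin-2), which signals through Fcer1g, was at -0.035 (SE 0.17), and Treml4 was at 0.11 (SE 0.19). Of 16 inhibitory receptors with a motif like that of Fcgr2b, 2 were measured. Btla read 9.27, 8.82 and 9.35 after antibiotics and 8.75, 8.52 and 8.69 without, at 0.49 (SE 0.18, limma adjusted p = 0.565), and Pecam1 was at -0.079 (SE 0.24). Complement receptors and C1q, the other route by which opsonised material is recognised, had 5 of 13 measured, 4 higher and 1 lower (median 0.029). Itgb2, the beta chain of complement receptor 3, was at 0.23 (SE 0.14), Itgax at 0.15 (SE 0.14) and Cd93 at -0.045 (SE 0.15). The first-component gene C1qa was at 0.029 (SE 0.15). In each of these 3 lists 0 genes passed the adjusted threshold. Btla was the 1 gene with an unadjusted p under 0.05, beside 7.74% of all genes.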

How the data were processed

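The deposited data hold raw probe intensity, which the file name calls non-normalized, and per the file headers a column of detection p-values beside each array. The authors also deposited normalized intensity on a linear scale, and the sources used here do not say how it was made. Its 154182 values equal those of the series' value table, and 44.6% lie below 0.

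Here limma 3.58.1 (R 4.3.3) applied neqc to the deposited intensity: background from the detection p-values, normexp correction, an offset of 16, quantile normalization and log2. The offset understates folds of dim genes. Of 25697 probes 7507 were kept (detection p under 0.05 on at least 3 of 6 arrays). Symbols came from the platform annotation, with 1 symbol for 23978 probes and 0 symbols updated. The brightest kept probe stood for a gene, which left 5901 named genes and 430 unnamed probes. These were fitted with lmFit and eBayes (8.57 degrees of freedom), adjusted by Benjamini-Hochberg over all 6331, at a threshold of 0.05. The code was tested on simulated data. The number of arrays limits the precision, and the median SD within a group was 0.219 (log2).

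Members and gene lists were chosen with earlier results of these data known. Named are all members, up to 4 genes per pathway list by smallest p and the first 2 measured genes per marker list. Also named are other measured B cell and macrophage markers, genes named as not detected, and the 3 profiles nearest to Fcmr. A further 16 processing alternatives were run. Same-numbered replicates were not treated as pairs. Cross-reaction between probes of related receptors was not checked.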

Additional observations from a re-analysis of the deposited data

How the results depend on the processing

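The count of genes past an adjusted p of 0.05 in limma was 0 under all 16 alternatives, as was that of Fc receptor genes, with the smallest adjusted p over all genes between 0.0940 (array weights) and 0.685. At an unadjusted p under 0.05 there were 341 to 1094 genes, the highest without the filter on dim probes, and 1 to 4 members. Of the 112 fold changes of the 7 members under these alternatives 4 changed sign. With array weights Fcgr4 stood at 0.0023 and Fcer1g at -0.0068. Leaving out each array gave -0.41 to 0.26 for Fcgr4 and -0.10 to 0.36 for Fcer1g, and the cause was not tested. Without background correction Fcrla was at 0.23 and Fcgr2b at 0.35, and with median scaling Fcgrt was at 0.068. Of 208 list medians 18 moved by more than the SD between arrays. The macrophage and monocyte median moved in 5 of 16 alternatives, the DC core median in 5 and the B cell median in 3. With no filter on dim probes the B cell median went from -0.39 to -0.039, over 12 genes. The macrophage and monocyte median went from 0.33 to 0.091, over 11 genes. Among genes with an unadjusted p under 0.05, 44.1% were higher, and 22% with median scaling.

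With the replicate number as a replicate block, 0 genes passed, the smallest adjusted p was 0.590 and 417 genes had an unadjusted p under 0.05. There the SE was 0.19 for Fcmr, against 0.27 as reported. For Fcgr2b, Fcgr3 and Fcrla it was 0.22, 0.21 and 0.19, against 0.19, 0.19 and 0.17. Deviations of same-numbered arrays from their group means correlated at -0.047, -0.060 and -0.15. With 3 arrays per group this cannot show whether same-numbered arrays share a batch, and the labels name no pairs. Signal over background limits Fcmr, Fcgr3 and Fcgr1 most.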
